A study of Mus musculus with 18 samples.

Results

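The 10 genes followed here mark homeostatic microglia, and were measured in a translating ribosome affinity purification (TRAP) RNAseq experiment on mouse brain. They encode mostly cell surface and secreted proteins and are Tmem119, Gpr34, Siglech, Fcrls, Selplg, Slc2a5, Upk1b, Il7r, Olfml3 and Crybb1. The genes were chosen by name, with earlier results of these data known. All 10 were found by gene symbol among the 36172 genes of the table and passed the filter on low counts.

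Homeostatic microglia are the resident macrophages of the healthy brain. They survey the tissue with fine processes and carry a set of surface receptors and secreted proteins that distinguishes them from blood monocytes and other macrophages. Expression of this set is known to fall when microglia meet an inflammatory stimulus, while genes shared by all macrophages, such as Itgam or the complement C1q genes, stay on.

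The mice were Cx3cr1-cre/ERT2+; NuTRAP+, in which tamoxifen gives cells with an active Cx3cr1 promoter a ribosomal protein tagged with EGFP. All 4 groups carried both alleles and had received tamoxifen for 5 days at about 3 months of age, so no group without Cre was part of the comparison. At 3 to 4 weeks after tamoxifen the mice were given LPS (5 mg/kg, intraperitoneal), a Gram-negative bacterial outer membrane component, or PBS, and a hemisected brain was taken 24 h later. RNA from the whole lysate (input) and RNA bound to EGFP-tagged ribosomes (positive fraction) was sequenced from each animal. The PBS animals were 268, 272, 273 and 506 (2 female, 2 male) and the LPS animals were 266, 267, 270, 271 and 507 (4 female, 1 male), and values below are listed in these orders. Cx3cr1 is also active in border macrophages of the meninges and vessels and in blood monocytes, and the study delayed collection after tamoxifen so that short-lived monocytes labelled at that time would have been replaced. The input library of animal 271 held 1252 counts and was left out by the rule that defined the comparison, leaving 4 libraries each in Input PBS, Positive PBS and Input LPS and 5 in Positive LPS. The 17 libraries used held 22968939 to 35123345 counts. Values are normalised counts, that is estimated read counts per gene divided by a library size factor. A gene was called when edgeR's quasi-likelihood test over all 14803 genes tested gave an adjusted p (Benjamini-Hochberg) below 0.05 and its log2 fold change exceeded 0.32 in either direction, and log2 fold changes are given with their standard error (SE).

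Before the members were compared, the labelled fractions were checked with marker genes. The 11 general microglia and macrophage markers tested, C1qa, Itgam, Tyrobp and Aif1 among them, were all called higher in the positive fraction than in input in PBS animals, with a median log2 fold change of 4.26. Their summed level over libraries was 9193–12518 normalised counts in Input PBS, 12212–16966 in Input LPS, 193447–222721 in Positive PBS and 211671–278781 in Positive LPS. All 7 oligodendrocyte markers were lower in the positive fraction, whereas the 7 neuron markers had a median log2 difference of 0.04 and summed to 184485–209253 in Positive PBS. Of 8 endothelial markers, 7 were called higher in the positive fraction of PBS animals (median log2 fold change 1.32). They summed to 2324–3542 in Input PBS and 5994–9036 in Positive PBS. The 7 astrocyte markers summed to 96813–106580 in Input PBS and 101108–150905 in Positive PBS, with 1 called higher and 3 lower. RNA of other brain cells was therefore still present in the positive libraries. The 6 LPS response genes used as a check (Tlr2, Il1b, Tnf, Lcn2, Ccl2 and Cxcl10) were called higher after LPS in both fractions.

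Promoter sequence was available for 6 of the 10 members, and the promoters of Siglech, Fcrls, Olfml3 and Crybb1 are shown because in the positive fraction Siglech and Fcrls ordered the LPS animals differently from Olfml3 and Crybb1, as described below. Each run covers 250 bases before to 50 bases after the start of the gene in RefSeq (GRCm38.p6), read 5′ to 3′ on the strand of the gene. Capitals mark matches to the core of a PU.1 site, GAGGAA on either strand. PU.1 is the ETS family factor that macrophages and microglia depend on. Siglech is at chr7:55767934-55768233 (plus strand), Fcrls at chr3:87263475-87263774 (minus strand), Olfml3 at chr3:103737952-103738251 (minus strand) and Crybb1 at chr5:112255570-112255869 (plus strand).
Siglech: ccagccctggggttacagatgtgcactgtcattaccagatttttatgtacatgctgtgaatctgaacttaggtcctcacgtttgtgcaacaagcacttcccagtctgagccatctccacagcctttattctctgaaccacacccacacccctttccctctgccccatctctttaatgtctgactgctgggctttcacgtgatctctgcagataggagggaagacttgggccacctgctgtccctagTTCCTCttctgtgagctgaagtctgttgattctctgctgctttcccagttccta
Fcrls: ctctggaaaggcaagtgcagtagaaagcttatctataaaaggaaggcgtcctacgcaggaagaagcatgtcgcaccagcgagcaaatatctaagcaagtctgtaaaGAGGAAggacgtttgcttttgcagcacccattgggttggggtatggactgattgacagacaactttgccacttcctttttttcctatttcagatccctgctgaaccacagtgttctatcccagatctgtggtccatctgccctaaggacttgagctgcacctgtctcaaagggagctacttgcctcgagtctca
Olfml3: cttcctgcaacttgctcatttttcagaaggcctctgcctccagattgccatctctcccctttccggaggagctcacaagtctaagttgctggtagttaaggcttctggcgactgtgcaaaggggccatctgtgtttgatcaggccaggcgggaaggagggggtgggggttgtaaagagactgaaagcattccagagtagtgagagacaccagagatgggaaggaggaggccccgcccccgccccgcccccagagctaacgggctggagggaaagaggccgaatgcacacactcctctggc
Crybb1: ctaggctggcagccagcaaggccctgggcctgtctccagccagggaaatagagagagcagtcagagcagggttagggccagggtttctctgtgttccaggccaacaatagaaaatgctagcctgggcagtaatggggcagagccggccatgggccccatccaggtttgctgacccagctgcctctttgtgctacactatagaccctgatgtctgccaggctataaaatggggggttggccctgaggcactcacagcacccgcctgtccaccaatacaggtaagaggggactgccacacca
The core was found in 2 of the 6 promoters, at position -4 from the start site of Siglech and at -144 in Fcrls, and it is present in 28.3% of all 32851 promoters of this length. An ETS-IRF composite (GGAANNGAA, in 8.24% of promoters) and an AP-1 site (TGANTCA, in 7.81%) were searched on both strands and matched in none of the 6 windows, which says only that these letters are not in these windows. The promoters of Slc2a5 and Il7r held no match to any of the 3 motifs. Animal 270 was the highest LPS animal for both genes in the positive fraction, as it was for Siglech and Fcrls. The 4 promoters shown were picked after the expression values were seen, and a link between motif and order of animals was not tested. No promoter was shown for Tmem119, Gpr34, Selplg and Upk1b.

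In unchallenged animals all 10 members were strongly enriched in the positive fraction. Each was called higher in Positive PBS than in Input PBS, against 21% of all genes tested, with log2 fold changes from 3.80 (Upk1b) to 4.64 (Crybb1). The median over the members was 4.36. Per kilobase of exon, Selplg was the most abundant member in Positive PBS at 9847 ± 678 normalised counts (SD, n = 4), and its libraries lay above those of Tmem119 (7767 ± 657). Tmem119, Fcrls (6991 ± 597) and Olfml3 (6452 ± 438) followed with overlapping libraries. Below them came Crybb1 (4307 ± 910.2), then Siglech (2392 ± 94.8) and Gpr34 (1772 ± 479), which overlapped each other, and then Slc2a5 (927 ± 139) and Upk1b (257 ± 48.3). Il7r was the least abundant at 71.1 ± 25.8 per kilobase, with no library of Upk1b as low as any of Il7r. The members thus spanned levels per kilobase in Positive PBS from 9847 (Selplg) to 71.1 (Il7r). In Input PBS the libraries held 6.67–14.6 normalised counts of Il7r.

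After LPS all 10 members were called lower in the positive fraction, where 14.9% of all genes tested were called lower. Il7r had passed the filter on low counts only through Positive PBS, the group from which it fell. The median log2 fold change of the members was -2.61, beside 0.01 over all genes tested. All 5 Positive LPS libraries lay below all 4 Positive PBS libraries for each of the 10 genes, a separation seen in 13% of genes tested. In input 8 of the 10 were called lower, where 5.26% of genes tested were, with a median of -1.28 beside 0.00 over all genes. The same 8 genes had no overlap between Input LPS and Input PBS, as had 11.5% of genes tested, and Upk1b and Il7r overlapped. In bulk RNA of this kind, fewer cells of a type and less RNA per cell cannot be told apart.

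**Figure D1:**
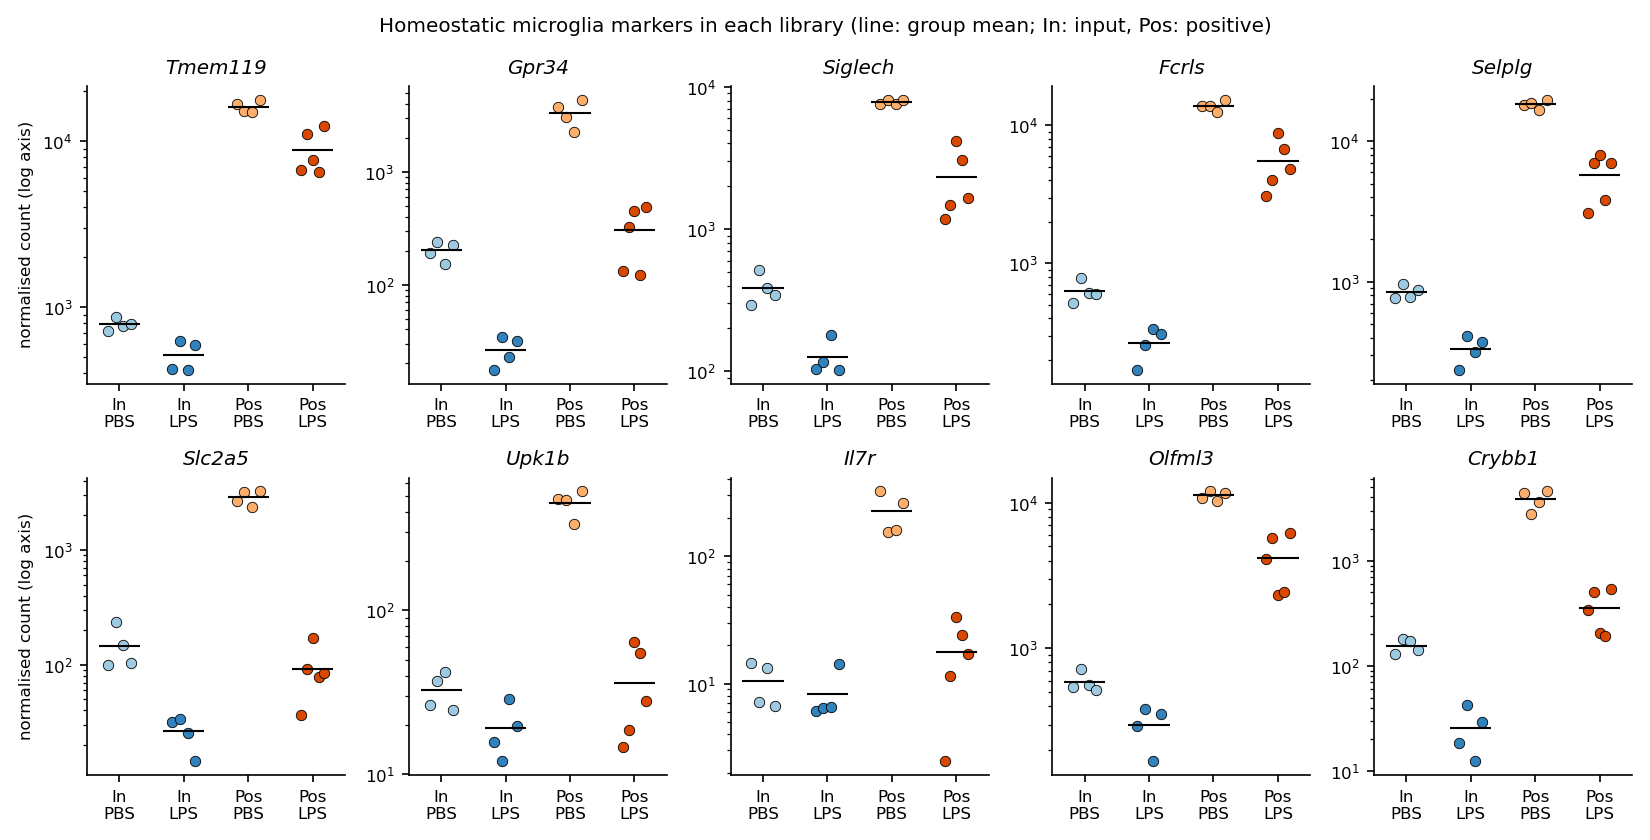
Normalised count (log axis) of each member in every library of the 4 groups (5 in Positive LPS, 4 in each other group), with points for libraries and lines for group means. In the positive fraction all LPS points lie below all PBS points for each gene, whereas in input the LPS and PBS points of Upk1b and Il7r overlap.

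Tmem119 (chr5:113793729-113800352, minus strand, mm10) encodes a type I membrane protein used as a microglia-specific surface marker, and its fall in the positive fraction was the smallest of the 10. In Positive PBS it counted 16716, 15141, 14908 and 17796, and in Positive LPS 6725, 11042, 7700, 6550 and 12294. The LPS animals kept 54.9% ± 16.3 of the PBS mean (SD, n = 5), a log2 fold change of -0.86 ± 0.17 (adjusted p = 0.000526). Animals 267 and 507 lay closest to the PBS animals and the other 3 were close together. In input the means were 787 ± 61.3 in PBS and 516 ± 110.3 in LPS (SD, n = 4 each), a log2 fold change of -0.61 ± 0.19 (adjusted p = 0.0347). This input call depended on single libraries, with an adjusted p of 0.11 without Input LPS 266, 0.114 without Input LPS 270, 0.089 without Input PBS 272, 0.0627 without Input PBS 273 and 0.0658 without Input PBS 506.

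Gpr34 (chrX:13632769-13640858, plus strand) encodes a G protein-coupled receptor for lysophosphatidylserine and is related to the ADP receptor gene P2ry12. It counted 3740, 3046, 2276 and 4392 in Positive PBS and 132, 322, 452, 123 and 484 in Positive LPS, so that 8.99% ± 5.08 of the PBS mean was left (SD, n = 5). The fall was 11.1-fold in the positive fraction (log2 fold change -3.47 ± 0.33, adjusted p = 3.01e-07) and 7.54-fold in input (-2.91 ± 0.43, adjusted p = 0.000118). Every LPS library was several times below the lowest PBS library of its fraction, and animals 266 and 271 held the lowest positive values. In input it counted 191, 238, 151 and 226 in PBS and 17.5, 34.0, 22.99 and 31.7 in LPS animals (266, 267, 270 and 507). Of 3 relatives tested, P2ry12 (log2 fold change -2.47 ± 0.20, adjusted p = 4.11e-08) and P2ry13 (-1.79 ± 0.20, adjusted p = 1.27e-06), both nucleotide receptors of microglia, fell in the positive fraction as well as in input (-2.04 and -1.24). The UDP-sugar receptor gene P2ry14 had a log2 fold change of -0.58 ± 0.27 (adjusted p = 0.0928) in the positive fraction and was not called.

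Siglech (chr7:55768178-55778833, plus strand) encodes a sialic acid-binding immunoglobulin-like lectin that signals through the adaptor DAP12 (Tyrobp). Its level in Positive PBS was uniform, at 7606, 8138, 7573 and 8120, and in Positive LPS it counted 1174, 1475, 4147, 3064 and 1660. The log2 fold change was -1.77 ± 0.28 (adjusted p = 7.31e-05) in the positive fraction and -1.61 ± 0.33 (adjusted p = 0.00284) in input. Within the LPS animals the values spread widely, from 14.9% of the PBS mean in animal 266 to 52.8% in animal 270. Other Siglec genes went the other way. Of 5 tested Siglec and DAP12 genes, 4 were called higher in the positive fraction, among them Siglec1, a sialoadhesin of macrophages (2.53 ± 0.30, adjusted p = 2.76e-06), Siglece (2.28 ± 0.31, adjusted p = 1.69e-05) and Cd22 (0.89 ± 0.18, adjusted p = 0.000939). The rise of Siglec1 was from 158–233 normalised counts in Positive PBS to 589.8–1633 in Positive LPS. Cd33 was the fourth, at 0.66 ± 0.25 (adjusted p = 0.0433), and it missed the threshold in 15 of 29 alternatives. Tyrobp itself was not called (0.23 ± 0.10, adjusted p = 0.0834).

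Fcrls (chr3:87250965-87263524, minus strand), a Fc receptor-like scavenger receptor gene found in mouse microglia, behaved much like Siglech. It counted 13857, 13914, 12496 and 15407 in Positive PBS and 3064, 4015, 8795, 6694 and 4846 in Positive LPS, with a log2 fold change of -1.34 ± 0.23 (adjusted p = 0.00018). In input it fell from 627 ± 111 to 267 ± 72.3 (SD, n = 4 each; log2 fold change -1.23 ± 0.26, adjusted p = 0.00355). Animals 270 and 271 held the highest positive LPS values of both genes and animal 266 the lowest. Of 2 tested relatives, Fcrl1, better known from B cells, fell from 137–189.5 to 19.6–61.4 normalised counts in the positive fraction (log2 fold change -2.10 ± 0.37, adjusted p = 0.000204), and Fcrlb was not called (0.48 ± 0.33, adjusted p = 0.261).

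Selplg (chr5:113817798-113830501, minus strand) encodes PSGL-1, the ligand through which leukocytes bind P-selectin, and lies 17445 bases from Tmem119 on the same strand. It counted 17977, 18542, 16758 and 19787 in Positive PBS and 3072, 7024, 7935, 3825 and 7044 in Positive LPS. The log2 fold change was -1.66 ± 0.22 (adjusted p = 1e-05) beside -0.86 for its neighbour, and 31.6% ± 11.9 of the PBS mean was left (SD, n = 5). In input the log2 fold change was -1.34 ± 0.24 (adjusted p = 0.000852). The selectin genes Selp and Sele, which endothelial cells express when activated, rose in both fractions. Selp went from 1.91–6.65 to 53.4–233 normalised counts in input and from 0–11.5 to 74.2–207 in the positive fraction, and Sele from 0–5.72 to 19.7–127 in input. Neutrophils also carry PSGL-1. The 11 neutrophil marker genes summed to 146–327 in Positive PBS and 433–1158 in Positive LPS, against 472–868 and 770.1–1677 in input. Ly6g was at 0 in every library, and 6 of the 11 had enough counts to be tested. Of these 6, 5 were called higher after LPS in each fraction, where 2809 (positive) and 1060 (input) of all 14803 genes tested were. The part of neutrophils in the level of Selplg was not tested.

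Slc2a5 (chr4:150119344-150144168, plus strand) encodes GLUT5, a facilitative transporter that carries fructose, and showed the deepest fall of the 10 in the positive fraction. It counted 2657, 3185, 2369 and 3265 in Positive PBS and 36.8, 92.2, 172, 78.4 and 84.5 in Positive LPS. This was a 30.5-fold fall (log2 fold change -4.93 ± 0.33, adjusted p = 2.71e-09), the third largest among the 14803 genes tested, and it left 3.23% ± 1.71 of the PBS mean (SD, n = 5). In input the counts were 99.3, 235, 149 and 104 in PBS and 31.5, 34.0, 25.5 and 14.4 in LPS animals, a 5.61-fold fall (log2 fold change -2.49 ± 0.38, adjusted p = 0.000173), where the fitted falls of Gpr34 and Crybb1 were larger. Other members of the transporter family did not share this pattern. Of 9 tested, only the blood-brain barrier glucose transporter gene Slc2a1 was called lower in the positive fraction (-0.56 ± 0.12, adjusted p = 0.00128), while the urate transporter gene Slc2a9 (1.32 ± 0.18, adjusted p = 1.78e-05), Slc2a4 (0.91 ± 0.27, adjusted p = 0.0123) and Slc2a6 (0.58 ± 0.17, adjusted p = 0.0102) were called higher. The calls of Slc2a4 and Slc2a6 were lost without animals 506 and 507 and with scaling to microglial genes. Among genes of fructose handling, ketohexokinase (Khk) was not called (0.30 ± 0.14, adjusted p = 0.0891), sorbitol dehydrogenase (Sord) had -0.33 ± 0.11 (adjusted p = 0.0238) with the call lost in 9 of 29 alternatives, and Aldoc was not called (-0.25 ± 0.10, adjusted p = 0.0527).

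Upk1b (chr16:38773184-38800203, minus strand) encodes uroplakin 1b, a tetraspanin best known from the urothelium. It counted 481, 469, 334 and 535 in Positive PBS and 14.7, 18.7, 64.0, 55.2 and 28.2 in Positive LPS, a 12.4-fold fall (log2 fold change -3.64 ± 0.34, adjusted p = 1.92e-07). In input it counted 26.4, 37.2, 41.8 and 24.8 in PBS and 15.7, 12.0, 28.7 and 19.6 in LPS animals. The input groups overlapped through animal 270, and the input log2 fold change of -0.76 ± 0.40 (adjusted p = 0.225) was not called. Among 7 tetraspanins and uroplakins tested, the lysosomal Cd63 rose in the positive fraction (1.36 ± 0.16, adjusted p = 2.09e-06) and Cd9 fell (-0.67 ± 0.14, adjusted p = 0.000794), while Cd81 was not called (-0.08 ± 0.12, adjusted p = 0.623). Cd151 was also called higher (0.50), though not without animals 506 and 507 or with scaling to microglial genes, and Cd37 lower (-0.37), the latter in only 11 of 29 alternatives.

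Il7r (chr15:9506159-9529876, minus strand) encodes the alpha chain of the interleukin-7 receptor, which pairs with the common gamma chain Il2rg or, for TSLP, with Crlf2. It counted 325, 156, 161 and 259.9 in Positive PBS and 2.45, 11.4, 33.4, 24.3 and 17.1 in Positive LPS, a 12.4-fold fall (log2 fold change -3.63 ± 0.41, adjusted p = 1.91e-06). The lowest LPS library, animal 266, held 2 estimated counts, which is under the 3 counts taken as the limit of detection. In input it counted 14.6, 7.22, 13.3 and 6.67 in PBS and 6.12, 6.43, 6.57 and 14.4 in LPS animals. Both input groups were near the limit at which counts can be told apart, and the difference of -0.30 ± 0.55 (adjusted p = 0.767) was not detectable at this depth. Lymphocytes also express Il7r. Their 11 markers summed to 133–210.2 in Positive PBS and 292–416 in Positive LPS, and the T cell gene Cd3e was at 0–8.71 and 0–1.04 in these groups. The part of these cells in the level of Il7r was not tested. The partner chain Il2rg rose (2.81 ± 0.25, adjusted p = 1.29e-07 in the positive fraction, 1.81 ± 0.30, adjusted p = 0.000397 in input), from 96.6–124 to 556–927 normalised counts. Of 7 genes of the IL-7 axis tested, Stat5a also rose in the positive fraction (0.76 ± 0.13, adjusted p = 0.000173) and Bcl2 fell (-0.49 ± 0.12, adjusted p = 0.00279). Crlf2 had 0.40 ± 0.16 (adjusted p = 0.0477) with the call lost in 15 of 29 alternatives, and Jak1, Jak3 and Stat5b were not called.

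Olfml3 (chr3:103735394-103738001, minus strand) encodes a secreted olfactomedin-domain glycoprotein. It counted 10828, 11996, 10328 and 11651 in Positive PBS and 4122, 5696, 2307, 2438 and 6185 in Positive LPS (log2 fold change -1.43 ± 0.26, adjusted p = 0.000231). Here animals 270 and 271 were the lowest LPS animals and 507 the highest. In input the means were 584 ± 92.0 in PBS and 300.2 ± 96.4 in LPS (SD, n = 4 each), a log2 fold change of -0.96 ± 0.29 (adjusted p = 0.0312). The input call was lost without Input LPS 266 (adjusted p = 0.0725), Input LPS 270 (0.102), Input PBS 272 (0.0915) or Input PBS 273 (0.0549). Of 6 relatives tested, the neuronal olfactomedins Olfm1 (-0.53 ± 0.09, adjusted p = 0.000193) and Olfm3 (-0.58 ± 0.09, adjusted p = 4.11e-05) fell slightly in the positive fraction and Olfml2b rose (1.17 ± 0.13, adjusted p = 1.27e-06). Olfml2a was called lower (-1.42 ± 0.43, adjusted p = 0.0129), but not without Positive PBS 268 (-1.12, adjusted p = 0.0588). Olfm2 had -0.36 ± 0.12 (adjusted p = 0.026) with the call lost in 8 of 29 alternatives, and Olfml1 was not called.

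Crybb1 (chr5:112255821-112269582, plus strand) encodes a beta crystallin, a structural protein of the lens. It is not a surface or secreted protein, and it is listed here because its transcript is a marker of microglia. It counted 4424, 2814, 3656 and 4609 in Positive PBS and 342, 499, 205, 192 and 535 in Positive LPS, so that 9.15% ± 4.13 of the PBS mean was left (SD, n = 5). The log2 fold change was -3.45 ± 0.29 (adjusted p = 4.41e-08) in the positive fraction and -2.61 ± 0.38 (adjusted p = 0.000103) in input. As for Olfml3, animals 270 and 271 were the lowest. Its neighbour Cryba4, another beta crystallin gene 3318 bases away, was the only relative of 7 with enough counts to be tested. Cryba4 was enriched in the positive fraction of PBS animals (log2 fold change 4.57 ± 0.39, adjusted p = 2.21e-08), where it fell from 298–498 to 51.9–176 normalised counts (-1.66 ± 0.30, adjusted p = 0.000281).

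**Figure D2:**
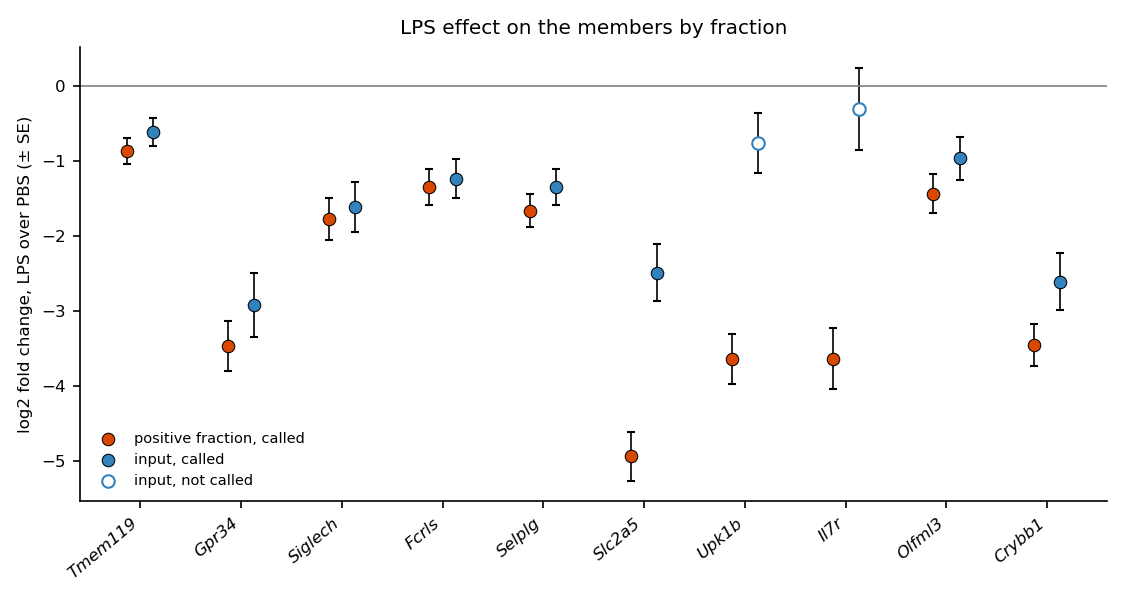
Log2 fold change of LPS over PBS for each member (points, with SE) in the positive fraction and in input, filled where called and open where not. Slc2a5, Upk1b and Il7r lie far lower in the positive fraction than in input, and for the other 7 genes the values of both fractions lie within 0.84 of each other.

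The next comparison asked whether LPS changed the members differently in the positive fraction and in the whole lysate. The difference of the LPS effect, positive minus input, was called for 3 of 10 members, where 1.42% of genes tested were called lower. It was -2.45 ± 0.50 (adjusted p = 0.00535) for Slc2a5, -2.88 ± 0.52 (adjusted p = 0.00225) for Upk1b and -3.33 ± 0.70 (adjusted p = 0.00614) for Il7r on the log2 scale. The input libraries held only 7 to 19 estimated counts of Il7r and 13 to 44.5 of Upk1b. How far such low input counts set the differences of these genes was not tested. For the other 7 it ranged from -0.84 (Crybb1, adjusted p = 0.362) to -0.11 (Fcrls, adjusted p = 0.905). Without animals 506 and 507 the differences were -2.59 for Upk1b (adjusted p = 0.0587) and -2.67 for Il7r (0.151), which were no longer called, and Slc2a5 was the only member called. With the animal as a block, which pairs both fractions of an animal, Olfml3 joined the 3 (-0.36, adjusted p = 0.0474).

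The same pattern appears as a loss of enrichment within animals, with the ratios of Upk1b and Il7r resting on the same low input counts. In PBS animals Slc2a5 was 26.8, 13.5, 15.9 and 31.4 times higher in the positive than in the input library of the same animal, and in LPS animals (266, 267, 270 and 507) 1.17, 2.71, 6.74 and 5.89 times. For Upk1b the ratios were 18.2, 12.6, 8.001 and 21.6 in PBS and 0.935, 1.56, 2.23 and 1.43 in LPS animals. For Il7r they were 22.3, 21.6, 12.1 and 39.0 in PBS and 0.401, 1.77, 5.08 and 1.19 in LPS animals, the lowest resting on 2 counts. No LPS animal reached the lowest PBS ratio for any of these 3 genes. For Tmem119, by contrast, the mean ratio was 20.6 ± 2.70 in PBS and 18.1 ± 1.99 in LPS animals (SD, n = 4 each), and the animals of both groups overlapped. In the fit over all genes, 9 of 10 members were called higher in Positive LPS than in Input LPS, where 27.6% of genes were. Slc2a5 was still enriched after LPS (log2 fold change 1.85 ± 0.38, adjusted p = 0.000381) and Il7r was not called (1.08 ± 0.50, adjusted p = 0.0684), although it was with DESeq2 (1.09, adjusted p = 0.0389), without Positive LPS 266 (1.34, adjusted p = 0.0101) and without Input LPS 507 (1.48, adjusted p = 0.0328). Upk1b was at the threshold (0.93 ± 0.38, adjusted p = 0.0418), and its call was lost in 10 of 27 alternatives. These were limma (0.74, adjusted p = 0.0904), all 18 libraries (0.80), the deposited log2 values (0.66), leaving out animals 506 and 507 (1.02), the animal as a block (0.65, adjusted p = 0.0587) and the fits without Input LPS 266 (0.85), Input LPS 267 (0.77), Positive LPS 270 (0.61), Positive LPS 271 (0.74) or Input LPS 507 (0.94).

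**Figure D3:**
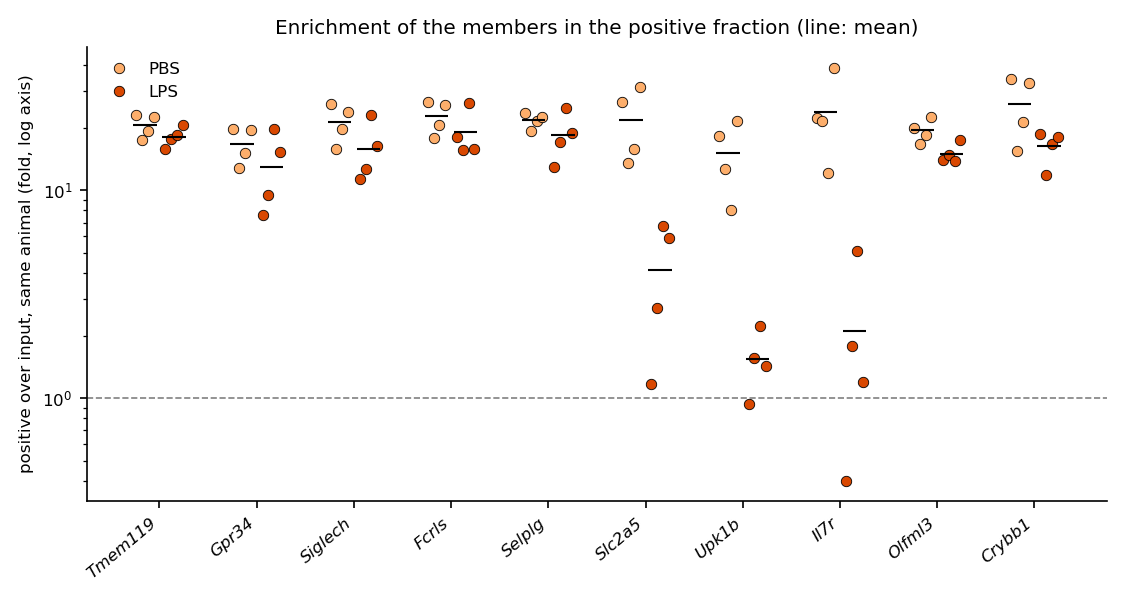
Ratio of the positive to the input library of the same animal (fold, log axis) for each member in PBS (n = 4) and LPS (n = 4) animals, with lines for means and a dashed line at 1. Slc2a5, Upk1b and Il7r drop after LPS to ratios between 0.401 and 6.74, and the other members stay at 7.57 or above.

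The 5 LPS animals did not rank alike for all members. In the positive fraction animal 270 held the highest value of Siglech (52.8% of the PBS mean), Fcrls (63.2%), Selplg (43.4%), Slc2a5 (5.98%), Upk1b (14.1%) and Il7r (14.8%). The same animal held the lowest value of Olfml3 (20.6%) and the next to lowest of Crybb1 (5.29%). Animal 507 held the highest value of Tmem119 (76.2%), Gpr34 (14.4%), Olfml3 (55.2%) and Crybb1 (13.8%). Animal 266 was lowest for 6 of the 10 genes. The input libraries of the same animals are separate libraries, and they repeated this order only in part. Animal 270 was again highest for Siglech (46.9%), Fcrls (53.1%) and Upk1b (88.3%) and lowest for Olfml3 (28.7%), Crybb1 (7.91%) and Tmem119 (53.2%). It was not highest in input for Selplg (37.6%), Slc2a5 (17.3%) and Il7r (62.9%), and animal 267 was highest for 6 of the 10 genes there. Animals 266, 270, 271 and 507 were all female. The order of 5 animals was read after the values were seen and was not tested.

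**Figure D4:**
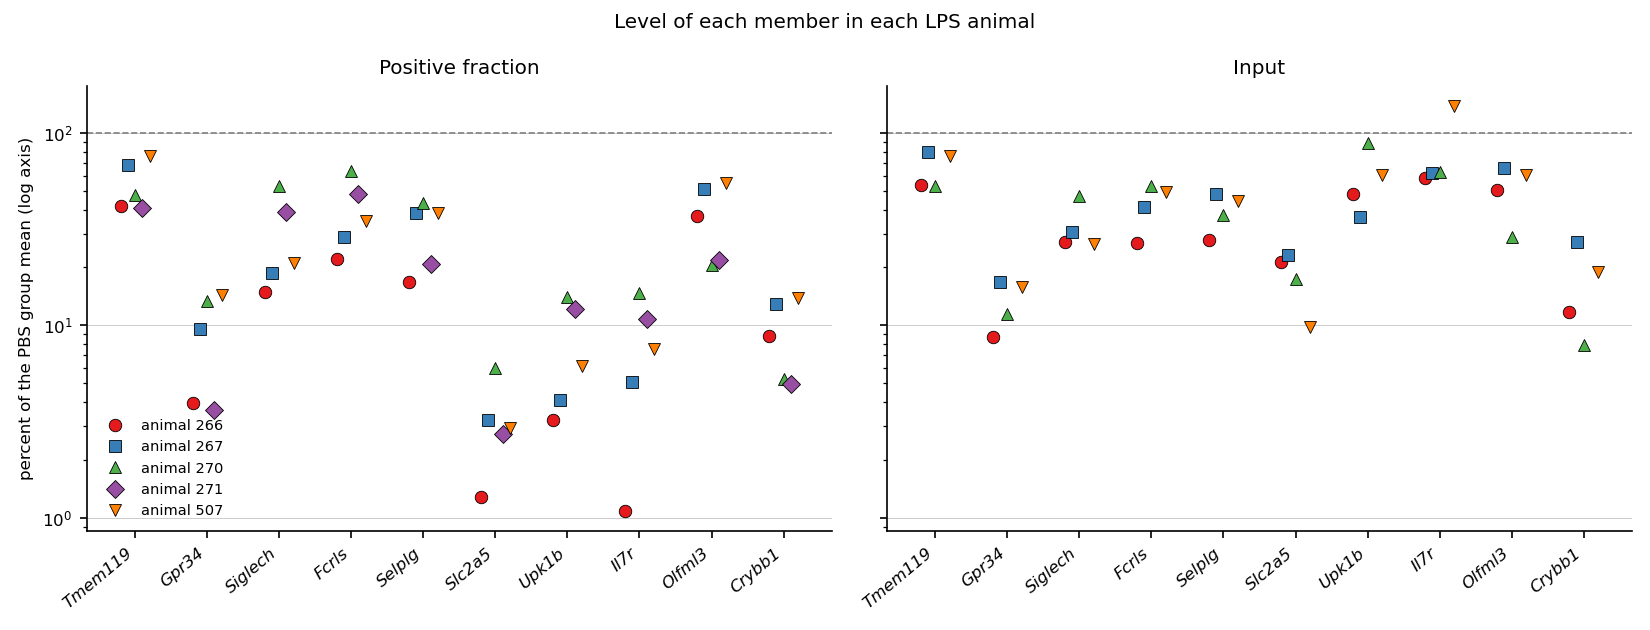
Level of each member in each LPS animal as a percent of the PBS group mean (log axis) in the positive fraction (5 animals) and in input (4 animals), with 1 symbol per animal and a dashed line at 100. Animal 270 (triangles) lies highest for Siglech and Fcrls and lowest for Olfml3 in both panels.

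The members were next set beside other genes of the same cells. Ribosome-bound RNA of 16 of 24 other homeostatic microglia genes was called lower after LPS and of 2 higher, with a median log2 fold change of -0.53. Besides P2ry12 and P2ry13, those lower included Entpd1, an ectonucleotidase (-1.82 ± 0.19, adjusted p = 6.52e-07), Gpr56, an adhesion receptor (-1.63 ± 0.14, adjusted p = 6.25e-08), Rnase4, a secreted ribonuclease (-1.58 ± 0.18, adjusted p = 2.34e-06), and Tgfbr1, the type I TGF-beta receptor (-1.34 ± 0.20, adjusted p = 3.41e-05). Those higher were P2ry6, a UDP receptor linked to phagocytosis (0.88 ± 0.13, adjusted p = 5.11e-05), and Adora3, an adenosine receptor (0.90 ± 0.18, adjusted p = 0.000549). In input 2 of the 24 were called lower and 3 higher, where 779 and 1060 of all 14803 genes tested were. When libraries were scaled to microglial genes 18 of the 24 were lower, a setting in which 5594 genes were called lower in input. Of 238 genes tested from the study's microglia list, which was drawn from purified and single cells, LPS raised 99 and lowered 66 in ribosome-bound RNA by the same rule. Over all 14803 genes tested these counts were 2809 and 2199. Of the microglial reference genes, Cx3cr1 (-0.20 ± 0.19, adjusted p = 0.411), Csf1r (-0.16 ± 0.10, adjusted p = 0.221) and Aif1 (-0.24 ± 0.29, adjusted p = 0.54) were not called in the positive fraction. With scaling to microglial genes their log2 fold changes there were -0.47, -0.40 and -0.52. Cx3cr1 and Csf1r were each called lower in 1 of 29 alternatives, and Aif1 stayed uncalled.

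Of the 11 general microglia and macrophage markers tested, 5 exceeded Positive PBS in Positive LPS by the same rule, where 2809 of all 14803 genes tested did. The other 6 were not called, and the median log2 fold change was 0.27. Those called higher included Itgam, the CD11b chain (0.85 ± 0.21, adjusted p = 0.00323), Fcer1g, an Fc receptor adaptor (1.33 ± 0.18, adjusted p = 1.45e-05), and C1qa (0.49 ± 0.13, adjusted p = 0.00649), and 2 of the 11 were called higher with scaling to microglial genes. Laptm5 had a log2 fold change of -0.31 ± 0.11 (adjusted p = 0.0278), which was too small to be called. Border macrophages carry the same Cre driver, and 5 of their 9 markers were called lower in the positive fraction, Mrc1 (-1.33 ± 0.20, adjusted p = 4.89e-05), Lyve1 (-2.39 ± 0.33, adjusted p = 1.61e-05), Cbr2 (-1.36 ± 0.21, adjusted p = 6.63e-05), Cd209f and Pf4. Their summed level was 10858–19191 in Positive PBS and 7495–15993 in Positive LPS, groups that overlapped. Of 5 monocyte markers tested, 1 was called lower and 1 higher in the positive fraction, with a median log2 fold change of 0.31. The 6 monocyte markers in the list summed to 322.6–505.3 in Positive PBS and 278.3–607.7 in Positive LPS, groups that overlapped. Ccr2 alone went from 30.5–59.9 to 3.31–14.8 normalised counts. The part of these cells in the members' levels was not tested.

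**Figure D5:**
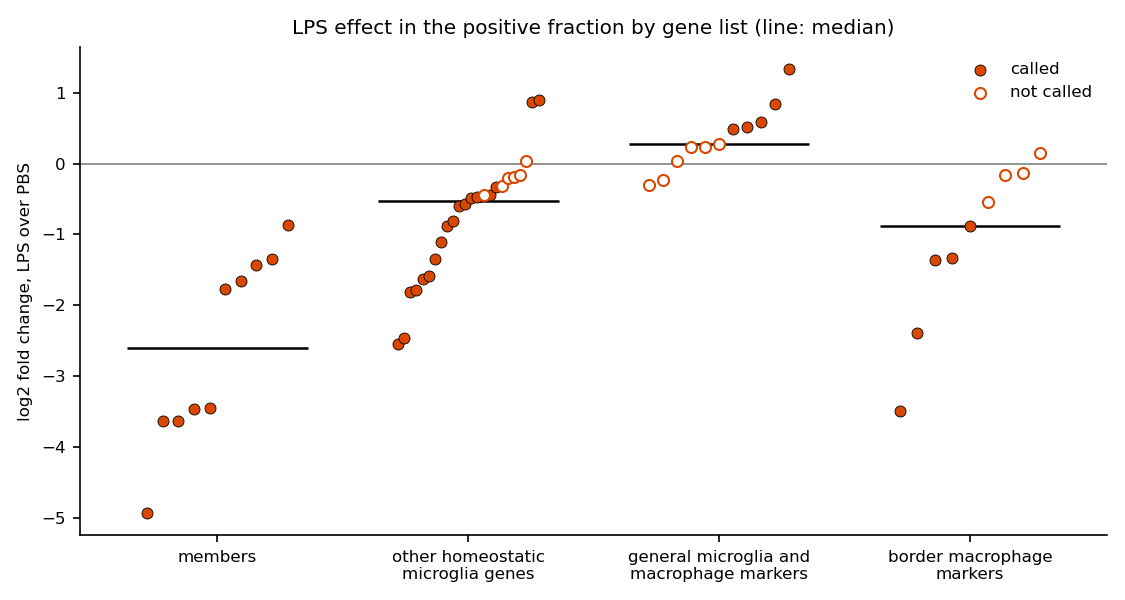
Log2 fold change of LPS over PBS in the positive fraction for the 10 members, 24 other homeostatic microglia genes, 11 general microglia and macrophage markers and 9 border macrophage markers, filled where called, with lines at the medians. All members lie below 0, at a median of -2.61, and the general markers scatter around a median of 0.27.

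The genes whose profile over the 17 libraries was closest to the mean standardised profile of the members were P2ry12 (Pearson r = 0.991), Plxdc2 (0.988), Epb4.1l2 (0.987), Capn3 (0.986), Hexa (0.986), Pmepa1 (0.985), Entpd1 (0.982), Smap2 (0.98), P2ry13 (0.98) and Rgs2 (0.979), among genes averaging 100 or more normalised counts. The points of these correlations share fraction and treatment, which separate the libraries, so the values are a description. The single closest gene of Siglech was P2ry13 (r = 0.987), of Fcrls Klk8 (0.993), of Tmem119 Fgd2 (0.996), of Olfml3 Tbxas1 (0.994), of Selplg Trem2 (0.996) and of Gpr34 Capn3 (0.985). For Upk1b and Il7r it was the selenoprotein P gene Sepp1 (0.957 and 0.954), for Slc2a5 Sirpa (0.979) and for Crybb1 Bco2 (0.977). Among the members themselves Siglech and Fcrls were the closest pair (r = 0.991) and Tmem119 and Upk1b the most distant (0.673).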

How the data were processed

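TRAP-RNAseq was analysed for 18 libraries from 9 animals, 1 input and 1 positive library each. Per the study's methods, 25 ng of RNA entered each strand-specific library, and the authors trimmed and aligned reads to mm10 in Strand NGS and counted them per gene. The deposited raw columns hold estimated counts, of which 81.7% of nonzero values were not whole, and these were rounded for count models. Reads shared by related genes may be split between them (the Fcrls, Olfml3, Slc2a5, Crybb1, Siglech, Upk1b and Gpr34 families), which was not tested. The deposited log2 values, which the submitters' notes tie to DESeq, were normalised by library size factors and centred by the authors, and served only as an alternative. All columns were assigned to samples.

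Size factors (0.766 to 1.32) were medians of ratios over 15766 genes without the input library of animal 271. A gene was kept when all libraries of 1 or more groups exceeded 20 normalised counts. The model, fitted with edgeR 4.0.16 in R 4.3.3, gave each group a mean, which left 13 residual degrees of freedom, and 5 contrasts were tested. The call threshold and fold follow the study's methods. Adjusted p-values are edgeR's unless another tool is named. The limit of detection was 3 counts, and limits cover counting error only.

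The members and gene lists were chosen with earlier results of these data known. Named are all members, tested relatives, reference microglial genes (P2ry12, Cx3cr1, Csf1r, Aif1, Itgam, C1qa) and, among genes averaging 100 or more normalised counts, the 10 closest to the members' mean standardised log2(normalised count + 1) by Pearson correlation and the closest gene of each member. Other named list genes were chosen after their values were seen, and a few genes under this rule are not reported here. Exonic length is the union of GENCODE M21 exons within the gene span of the file. Alternatives were DESeq2 1.42.0, limma 3.58.1, TMM, other filters, scaling to the study's microglia list without the members (232 genes), sex as a term, all 18 libraries, the animal as a block, leaving out each library, and leaving out animals 506 and 507, whose numbers stand apart from the rest. The limma fit of the deposited log2 values was added after seeing the data. Animal numbers pair input and positive libraries because both came from 1 animal, and their deviations from group means correlated at 0.16 to 0.519 over 8 animals.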

Additional observations from a re-analysis of the deposited data

Results flagged for a closer look

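Il7r stood apart in the input library of LPS animal 507, with 14.4 normalised counts against 6.12 to 6.57 in the other 3 Input LPS libraries. It was the only outlier among 40 sets of libraries (10 members in 4 groups) examined, and chance alone flags about 1 in 20. The LPS effect differed between the fractions for 3 members, by -2.45 for Slc2a5, -2.88 for Upk1b and -3.33 for Il7r on the log2 scale, positive minus input. The input library of animal 271, which no comparison used, held 4 counts of Tmem119 in a total of 1252, that is 0.32% of the library (exact 95% Poisson interval 0.0871% to 0.818%). The highest share of Tmem119 in Input PBS was 0.00313% and in Positive LPS 0.0407%. Of the other members, 8 had no count there, and Crybb1 had 0.5 estimated counts.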

How the results depend on the processing

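Over 29 alternatives the LPS effect of every member in the positive fraction kept its direction and its call in each alternative that tested the gene; where genes had to average 100 normalised counts, Il7r was not tested. No member reversed a called direction in any comparison. Without animals 506 and 507 the members called for the difference between fractions fell to 1, the genes called were 323 for the difference (1018 with all animals) and 1083 for LPS in input (1839), and the input calls of Tmem119 (-0.68) and Olfml3 (-1.10) were lost. When 1 library was left out at a time, input calls of members ranged from 6 to 8, and those for Positive LPS against Input LPS from 8 to 10. With the animal as a replicate block (both fractions come from the same animal) 1915 genes were called for the difference, 68.8% of them higher against 79.4% without the block; besides the changes for Olfml3 and Upk1b given in the report, the block changed no other call of a member. Scaled to microglial genes, the median of all genes moved to -0.23 for LPS in positive and to -0.35 for LPS in input libraries, the genes called in input rose to 6095 and the share called higher went from 56.1% to 22.3% (positive) and from 57.6% to 8.22% (input). There the input effects of Cx3cr1 (-0.39), Csf1r (-0.34), Sall1 (-0.37) and Stat5b (-0.35), near 0 otherwise, were called lower. With all 18 libraries or the deposited log2 values, the share of genes called higher in positive against input went from 52.8% to 37.6% and 37% in PBS and from 51.7% to 43.2% and 41.1% in LPS, and the input call of Tmem119 was lost (-0.55 and -0.61), as was that of Olfml3 (-0.99) with the deposited values. Apart from construction (fewer samples or another scale), the cause of these changes was not tested. Fitting only the libraries compared could not be run for the difference, since all are compared. Depth limits Il7r in input.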
